A study of Mus musculus with 6 samples.

Results

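The gene Pax5 was examined in pre-B cells, with 50 kb of sequence on each side of its gene body, to see where its chromatin was marked as active and where the Pax5 protein bound at its own gene. Pax5 (ENSMUSG00000014030.9) is 1 of 22380 protein-coding genes of the annotation GENCODE M1, and it was chosen by its name. It lies on chromosome 4 of the mouse assembly mm9 (NCBIM37), on the minus strand, from 44544017 to 44724318. The window examined ran from 44494017 to 44774318, which is 280302 bp. Of the lists that the authors deposited, it held 17 H3K27ac peaks out of 69345, 3 H3K4me3 regions out of 17979 and 9 Pax5 peaks out of 15445. The H3K4me3 regions were made from bins of 25 bp, joined here where the gap between them was at most 100 bp.

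Pax5 encodes a paired-domain transcription factor that commits lymphoid progenitors to the B cell lineage and keeps them there. It activates genes of B cell receptor signalling and represses genes of other lineages. Its own gene has a pair of alternative promoters with separate first exons, named 1A and 1B in the field, and an enhancer has been described in the fifth intron. H3K27ac is a histone mark of active promoters and enhancers, whereas H3K4me3 is concentrated at active promoters.

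The ChIP-seq profiles came from bone marrow pre-B cells of C57BL/6 mice, male and female, aged 6 to 14 weeks, that were RAG-/- and carried a rearranged IgM heavy chain transgene (RAG-/-µ+). These cells express a heavy chain from the transgene and cannot rearrange their light chain genes, so they stand for pre-B cells before light chain rearrangement. All 3 profiles share this genotype, and how many animals went into each library is not given in the sources used here. Each profile is 1 library, and the 3 matching input samples were not analysed here. There is therefore no replicate check, no test between conditions and no p-value, and every rank or share below describes these lists only. Depth is unknown, because the lists hold no read counts. The B lineage of the cells was checked with markers, whereas the pre-B stage itself was not tested. A Pax5 peak and an H3K27ac peak lay within 1000 bp of a start of the B-lineage genes Cd79a, Cd79b, Blnk, Vpreb1, Igll1 and Ebf1, and an H3K4me3 region lay at each of these but Igll1. None of the 3 lists had an entry at the 5 genes of other lineages (Cd3e, Gata1, Alb, Myod1 and Neurod1). Over all protein-coding genes, 38.0% had a Pax5 peak within 1000 bp of a start, 49.0% an H3K27ac peak and 52.9% an H3K4me3 region.

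Sequences of the start region and of intron 5 are shown first, read from NCBIM37 and written 5′ to 3′ on the strand of the gene, in lower case. They are the stretches upstream of the first annotated start of Pax5 and of the start 7440 bp further downstream, and the central 300 bp of a pair of Pax5 peaks in intron 5. Capitals mark exact matches to 1 of 5 short motifs that are described with the motif counts. The stretch upstream of the first start lies in no Pax5 peak and holds no match, and most transcripts of the gene start further downstream. The Pax5 peak over the first exon is not printed, because it is largely exon sequence that is not translated.

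Upstream of the first start, chr4:44724319-44724618: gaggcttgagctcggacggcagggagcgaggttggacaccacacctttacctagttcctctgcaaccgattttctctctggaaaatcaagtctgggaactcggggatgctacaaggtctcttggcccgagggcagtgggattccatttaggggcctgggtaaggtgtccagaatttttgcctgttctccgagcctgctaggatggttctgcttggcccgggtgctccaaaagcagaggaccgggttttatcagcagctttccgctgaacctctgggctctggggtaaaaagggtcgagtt

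Upstream of the downstream start, chr4:44716879-44717178: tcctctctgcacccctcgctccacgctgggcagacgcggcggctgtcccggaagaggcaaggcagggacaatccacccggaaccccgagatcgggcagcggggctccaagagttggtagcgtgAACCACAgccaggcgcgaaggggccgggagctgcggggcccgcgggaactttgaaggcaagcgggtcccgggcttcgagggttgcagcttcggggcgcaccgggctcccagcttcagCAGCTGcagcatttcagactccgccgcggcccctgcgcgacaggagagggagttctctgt

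Centre of the highest-scoring Pax5 peak in intron 5, chr4:44684231-44684530: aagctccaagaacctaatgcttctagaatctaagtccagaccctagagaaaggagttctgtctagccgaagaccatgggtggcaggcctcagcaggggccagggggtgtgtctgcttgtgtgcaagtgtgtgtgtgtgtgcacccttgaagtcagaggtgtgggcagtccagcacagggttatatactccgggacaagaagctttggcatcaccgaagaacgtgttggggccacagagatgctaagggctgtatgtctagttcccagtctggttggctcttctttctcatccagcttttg

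Centre of its neighbour in intron 5, chr4:44685487-44685786: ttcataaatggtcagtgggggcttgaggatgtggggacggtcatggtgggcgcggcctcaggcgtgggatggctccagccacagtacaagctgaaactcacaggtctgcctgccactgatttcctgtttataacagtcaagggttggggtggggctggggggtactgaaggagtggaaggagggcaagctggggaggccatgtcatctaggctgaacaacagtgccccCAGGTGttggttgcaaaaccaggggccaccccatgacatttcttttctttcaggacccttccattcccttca

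All 3 profiles met at the start region of Pax5, with entries within 1000 bp of starts of both alternative promoters. The annotation gives 16 transcripts, whose starts form 5 groups when starts within 500 bp are joined. The first group is the start at 44724318, with 1 coding transcript. The second group spans 44723557 to 44723280 and holds 12 transcripts, 10 of them coding. The start that the RefSeq promoter table (GRCm38.p6) gives for Pax5 was found by a single exact match of its 300 bp to NCBIM37, at 44723566, next to this group. Both groups lie in the first exon of the transcript Pax5-001 and are taken here as the upstream promoter. The starts at 44716878 and 44716285 form a group each, with 1 non-coding transcript each. Their first exons end at the same base inside intron 1, and they are taken as the downstream promoter. The last group, at 44696687, is a non-coding transcript that starts inside intron 3.

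At the upstream promoter an H3K27ac peak with a score of 38.4 ran over the first start, from 44723852 to 44725429. A second, with a score of 45.9, ran from 44722305 to 44723661 over the starts of the second group. The scores are those of the authors' peak caller, have no stated scale and were used only to order peaks within a list. A Pax5 peak with a score of 469.25, from 44723212 to 44724283, was 1072 bp wide and overlapped both of them, with its midpoint in the 190 bp between them. It lay in the first exon over almost its whole width, and the starts of the second group were inside it. A further Pax5 peak, from 44721807 to 44722578, had a score of 215.3 and lay in intron 1, within 1000 bp of the second group. A single H3K4me3 region covered both of these Pax5 peaks completely.

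The downstream promoter differed in its H3K27ac. Its pair of starts lay in no H3K27ac peak, and the nearest ones ran from 44717648 to 44720200 (score 31.7) and from 44715997 to 44716212 (score 8.79), on either side of 1435 bp without a peak. The start at 44716878 did lie in a Pax5 peak, from 44716744 to 44718634, which was 1891 bp wide, the widest of the 9 in the window, and had a score of 205.56. That start and the one at 44716285 both lay in an H3K4me3 region. Of the 5 start groups, 4 thus had an entry of each list within 1000 bp, and the group at 44696687 had none. Neighbouring groups shared entries, so these are not 4 separate cases. The Pax5 peak of score 205.56, for example, counted for both groups of the downstream promoter. The shares that follow count genes and not start groups. Among all protein-coding genes, 49.0% had an H3K27ac peak within 1000 bp of any annotated start, 52.9% an H3K4me3 region, 38.0% a Pax5 peak and 34.9% all 3, so that an active start bound by Pax5 is common in these lists.

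The H3K4me3 at the start was the widest in the genome by this list. The region over the upstream promoter ran from 44717636 to 44727335 and was 9700 bp wide, the widest of all 17979 regions in the list. The median width was 1025 bp, a ratio of 9.46. It reached 3017 bp upstream of the first start and 6682 bp downstream of it. A second region, from 44714661 to 44717460, began 175 bp further on, was 2800 bp wide (rank 604) and held the downstream promoter. With bins joined only where they touch, the widest region at Pax5 was 9300 bp, and with gaps of up to 500 bp both regions became 1 of 12675 bp. It held rank 1 in each of these lists, of 23237 and 16225 regions. The next regions in width were 9200 bp at a start of Tnrc18, 8300 bp without a start of a protein-coding gene, and 7050 bp at Bcl11a, a transcription factor gene used in B cells. This comparison of widths, Tnrc18 included, was chosen after the values were seen. H3K27ac peaks covered 78.1% of the widest region and 28.8% of the second, against a median of 69.2% over all H3K4me3 regions.

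The scores at the start were not extreme in the same way. The highest H3K27ac score within 1000 bp of a start of Pax5, 45.9, was at rank 3663 among the 10965 protein-coding genes with such a peak, whose median was 31.7. The highest Pax5 score there, 469.25, was at rank 2153 among 8513 genes, with a median of 269.4. Both values lay above the median of their genes, in the top 33.4% and the top 25.3%. These ranks take no account of the number of annotated starts of a gene, of which Pax5 has several.

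**Figure D1:**
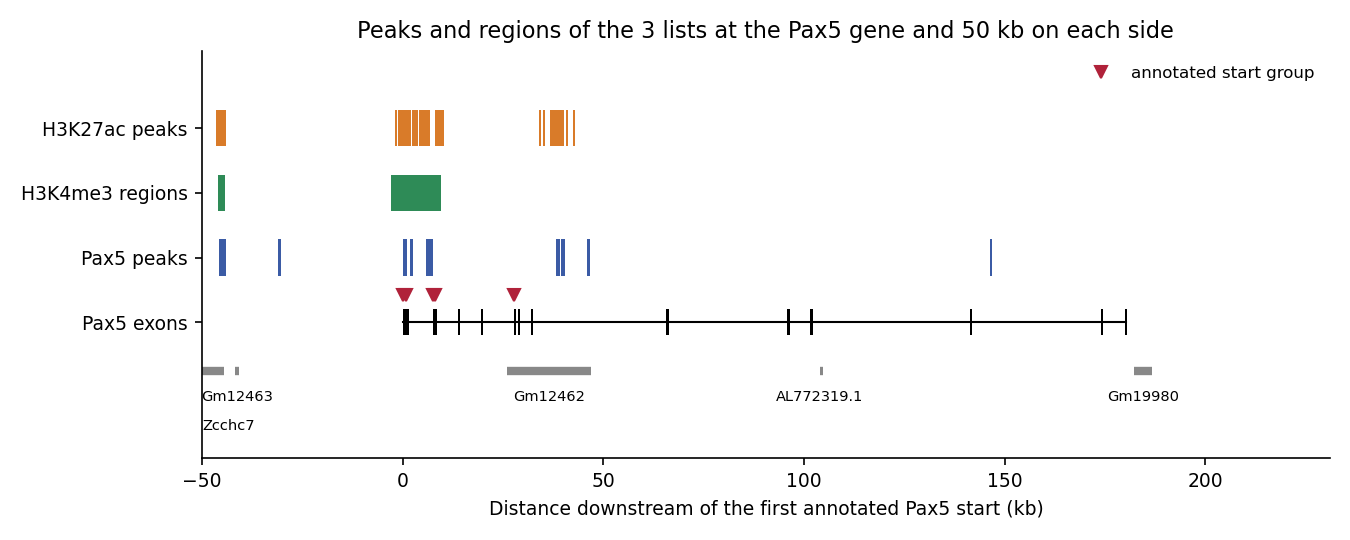
The position of every H3K27ac peak (orange), H3K4me3 region (green) and Pax5 peak (blue) is drawn against the distance in kb downstream of the first annotated start of Pax5, with exons of all its transcripts in black, start groups as triangles and other annotated genes in grey. The marks gather at the start and in intron 5, the 2 H3K4me3 regions of the start appear as 1 block at this scale because 175 bp lie between them, and 1 Pax5 peak stands alone near the far end of the gene.

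The highest-scoring Pax5 peak of the gene lay in intron 5 and not at a promoter. It ran from 44683803 to 44684959, with its midpoint 39937 bp downstream of the first start, and had a score of 821.52. That is rank 1027 of the 15445 Pax5 peaks, and as the highest Pax5 score in the gene body it put Pax5 at rank 971 of the 9408 protein-coding genes with a Pax5 peak in the body. The rank among genes takes no account of the length of the body or of the number of peaks in it. A neighbouring Pax5 peak, from 44685241 to 44686032, began 281 bp away and had a score of 277.23. Both overlapped H3K27ac peaks. The H3K27ac peak from 44684140 to 44685560 had a score of 54.8, the highest of the 14 in the gene body, and reached into both Pax5 peaks. The one from 44685669 to 44687529 had a score of 23.4. With 4 smaller H3K27ac peaks on both sides, which had scores from 5.94 to 8.16, they formed a group of 6 from 44681372 to 44690330. No H3K4me3 region lay in intron 5. A gap of 23945 bp without any H3K27ac peak, which held exons 2 to 5, separated this group from that of the start.

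The remaining Pax5 peak in intron 5, from 44677710 to 44678375, had a score of 176.41 and overlapped neither mark. It lay within 1000 bp of the start of Gm12462, a non-coding gene on the opposite strand that runs from 44677287 to 44698219 through the whole group of H3K27ac peaks in intron 5. Neither histone mark had an entry at that start.

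When H3K27ac peaks less than 10 kb apart were joined, the 14 peaks of the gene body and 1 upstream of it fell into these same 2 groups. The remaining peaks of the start group were 1 in intron 1 with a score of 13.2, from 44720632 to 44722095, and 3 narrow ones downstream of the start at 44716285, between 44714276 and 44715629, the first of them within 1000 bp of that start, with scores from 4.06 to 7.33. The group at the start held 9 peaks that covered 8580 bp, rank 1068 of 19019 groups in the genome, of which 12416 held more than 1 peak and the rest were single peaks. The group in intron 5 held 6 peaks that covered 5292 bp, rank 2106. The median group covered 1235 bp.

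**Figure D2:**
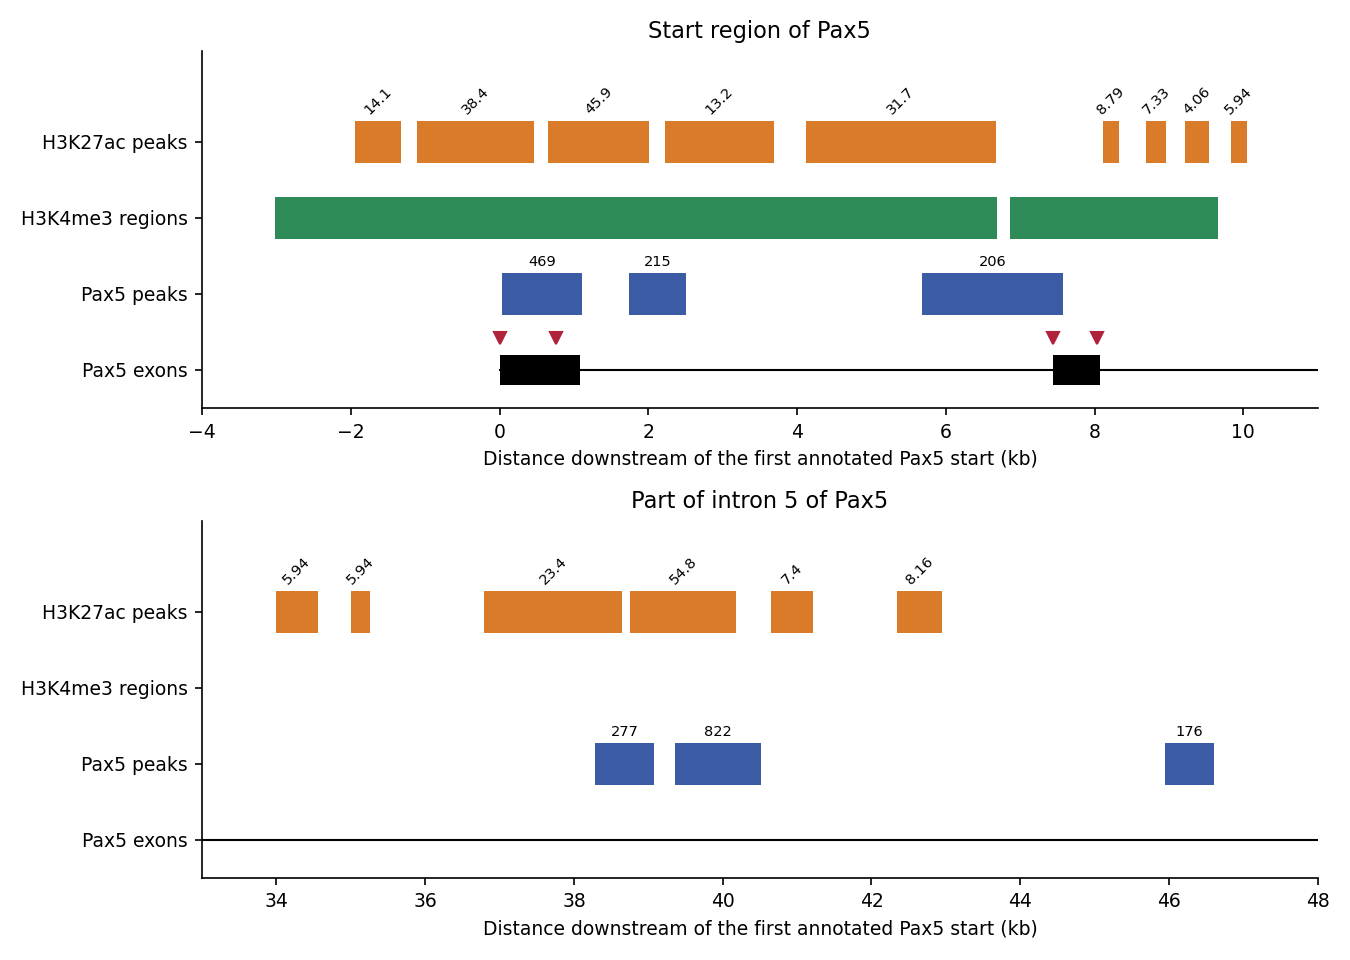
The start region (top) and part of intron 5 (bottom) are drawn against the distance in kb downstream of the first annotated start of Pax5, with the score of the authors' peak caller above each H3K27ac and Pax5 peak and start groups as triangles. The H3K4me3 regions cover all 3 Pax5 peaks of the start region, except for the 175 bp between the regions, and are absent from intron 5, where the Pax5 score of 821.52 is found.

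The rest of the gene was nearly empty in these lists. Introns 2, 3 and 4 held no entry of any list, and neither did introns 6, 7 and 9, nor the 50 kb downstream of the gene. Intron 8 held 1 Pax5 peak, from 44577373 to 44578016, with a score of 189.99 and without either mark. It lay 99693 bp from the next Pax5 peak. The H3K27ac peak nearest to the end of the gene began 137355 bp from it. Over the whole gene body, H3K27ac peaks covered 6.73%, H3K4me3 regions 5.26% and Pax5 peaks 3.88% of the sequence.

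In the upstream flank, an H3K27ac peak with a score of 14.1 lay from 44725646 to 44726264, inside the widest H3K4me3 region. The other entries lay at the start of the neighbouring gene, apart from 1 Pax5 peak. Zcchc7, which encodes a zinc finger protein of RNA surveillance, is transcribed away from Pax5 and starts 44431 bp upstream of it. Its start had an H3K27ac peak with a score of 69.4, the highest in the window, an H3K4me3 region of 1850 bp and a Pax5 peak with a score of 572.53. A weak H3K27ac peak with a score of 4.39 followed inside that gene. Between the genes, from 44754907 to 44755303, lay a Pax5 peak of 397 bp with a score of 231.14 that overlapped neither mark. Beyond the window, the body of Zcchc7 held a further 38 H3K27ac peaks, the nearest of them 102.817 kb from the first start of Pax5, with scores of up to 85.2, as well as 4 Pax5 peaks with scores of up to 242.33. The pseudogene Gm12463, the miRNA gene AL772319.1 and the non-coding gene Gm19980, which also lie in the window, had no entry of any list within 1000 bp of their start.

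Of the 9 Pax5 peaks in the window, 6 shared 1 bp or more with H3K27ac, against 79.3% of all Pax5 peaks. An H3K4me3 region was overlapped by 4, the 3 at the start of Pax5 and the 1 at Zcchc7, against 61.0% of all. The other 3 overlapped neither, against 15.7% of all. These counts are too small to set the window apart from the list. The scores of these 3 were 176.41, 189.99 and 231.14, and those of the 6 with H3K27ac ran from 205.56 to 821.52, so that the ranges overlapped. Across the genome the median score was 136.88 for Pax5 peaks that overlapped neither mark and 232.38 for those that overlapped H3K27ac. Of the 9, 6 scored above the median of the whole Pax5 list, 207.46, as 9 of the 17 H3K27ac peaks did above theirs, 8.52.

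The midpoints of 3 of the 6 Pax5 peaks with H3K27ac lay outside of it, in short gaps between neighbouring H3K27ac peaks. The gaps measured 190 bp at the first exon, 209 bp in intron 1 and 108 bp in intron 5. Among all Pax5 peaks that overlapped H3K27ac, 16.8% had their midpoint in such a gap of at most 500 bp. This comparison was chosen after the values were seen.

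The base composition of the Pax5 peaks varied. The ratio of observed to expected CpG was 0.71 in the Pax5 peak of the first exon, 0.69 in that of the downstream promoter and 0.78 in that of Zcchc7. The other promoter peak of Pax5, that in intron 1 at 44721807, held no CpG at all. In intron 5 the ratio was 0.14 in the highest-scoring peak, 0.17 in its neighbour and 0.24 in the peak without marks, so that promoter peaks lay both above and below those of intron 5. It was 0.31 in intron 8 and 0.43 in the peak between Pax5 and Zcchc7. The GC content of the 3 promoter peaks, 46.5% to 56.6%, overlapped that of the 3 in intron 5, 49.6% to 55.1%. The median CpG ratio over whole Pax5 peaks of the list was 0.53, and it was 0.23 for H3K27ac peaks.

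**Figure D3:**
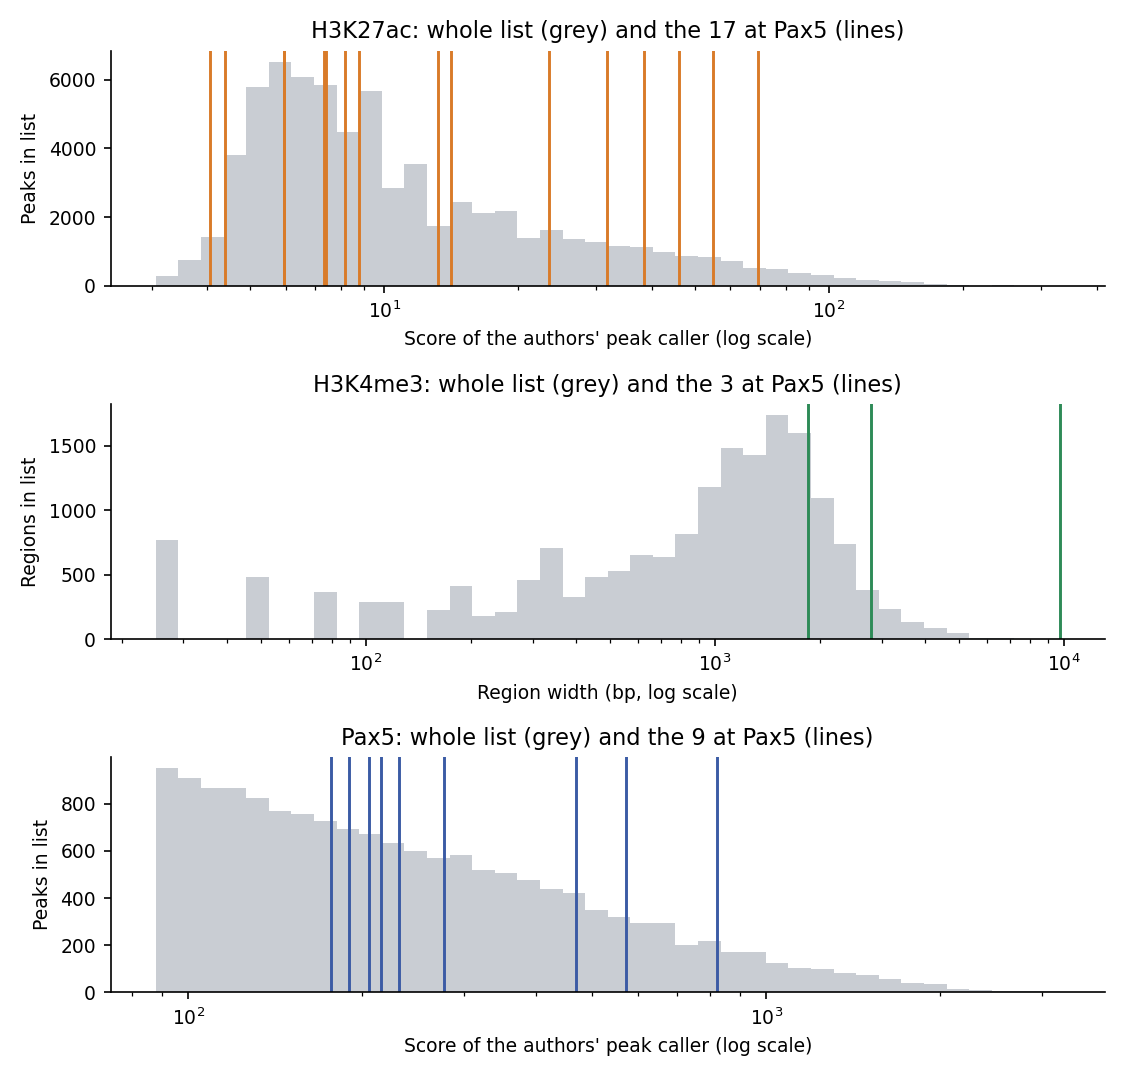
Histograms of the scores of all H3K27ac peaks, the widths of all H3K4me3 regions in bp and the scores of all Pax5 peaks (grey, on log axes) carry a line for each entry in the Pax5 window. The lines are spread through the scores of both peak lists, whereas the region of 9700 bp stands at the right end of the H3K4me3 widths.

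The letters of short motifs were searched on both strands in the central 300 bp of each Pax5 peak. The motifs were GCGTGAC or GCATGAC as a core of the Pax5 site, TCCC and GGGA with 2 bases between them for Ebf1, CAGCTG or CAGGTG as an E box bound by E proteins, GAGGAAGT for PU.1 and TGTGGTT for Runx factors. None of the 21 matches found in the whole peaks overlapped another. No central stretch of the 9 peaks held the Pax5 core, which 9.65% of the central stretches of all Pax5 peaks, 3.19% of those of all H3K27ac peaks and 4.09% of the 300 bp upstream of protein-coding genes held. In whole peaks there was no match either, against 19.7% of all whole Pax5 peaks. An exact match misses the many variants of a long and degenerate site, so this says only that these letters are not there. An E box was found in 4 of the 9 central stretches (41.7% of all Pax5 peaks, 37.1% of H3K27ac peaks and 31.0% of upstream stretches) and the Runx motif in 2 (6.89%, 7.06% and 5.02%). The PU.1 motif was in none (4.27%, 3.08% and 2.56%). The Ebf1 motif was in no central stretch (1.71%, 1.08% and 0.916%). It was found in 2 of the 9 whole peaks, against 4.95% of whole Pax5 peaks and 2.55% of whole H3K27ac peaks, although whole peaks differ in length. This count is too small to set the 9 peaks apart from the list. Ebf1 is a B cell transcription factor that acts together with Pax5. Both matches are shown with 40 bases on each side. The first is from the Pax5 peak at the downstream promoter, 528 bp from its centre. The second is from the unmarked peak between Pax5 and Zcchc7, 149 bp from its centre, where an E box is also in capitals.

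Ebf1 motif in the peak at the downstream promoter, chr4:44718172-44718261: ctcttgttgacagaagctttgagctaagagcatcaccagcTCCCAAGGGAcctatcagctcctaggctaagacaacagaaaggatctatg

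Ebf1 motif in the peak between Pax5 and Zcchc7, chr4:44754911-44755000: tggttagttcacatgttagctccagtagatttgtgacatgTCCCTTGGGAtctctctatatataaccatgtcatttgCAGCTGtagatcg

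Compared with other long genes, Pax5 was rich in Pax5 peaks. Its body held 7 of them, or 0.388 per 10 kb, which was higher than in 98.7% of the 2401 protein-coding genes of at least 100 kb, whose median was 0.0289. For H3K27ac the body held 14 peaks, or 0.777 per 10 kb, higher than in 85.1% of these genes (median 0.100). For H3K4me3 the 2 regions gave 0.111 per 10 kb, higher than in 80.4%. Of these long genes, 53.5% held any Pax5 peak in the body, 66.5% an H3K27ac peak and 64.9% an H3K4me3 region. The genes below Pax5 therefore include all those with none. By the share of the body covered, Pax5 was above 90.5% of these genes for H3K27ac, 99.6% for H3K4me3 and 98.7% for Pax5. Among all protein-coding genes, short ones included, the percentiles by peaks per 10 kb were 76.1 for Pax5, 69.1 for H3K27ac and 51.0 for H3K4me3.

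Set beside 18 other regulators of the B lineage, Pax5 was further down by the scores and numbers of peaks than by H3K4me3 width. Its first place in width was fixed in advance, because its region is the widest of the whole list. All 18 (Ebf1, Tcf3, Tcf12, Ikzf1, Ikzf3, Spi1, Spib, Foxo1, Bach2, Lef1, Irf4, Irf8, Runx1, Myb, Bcl11a, Erg, Ets1 and Fli1) had an entry of each of the 3 lists within 1000 bp of a start, against 34.9% of all protein-coding genes. The widest H3K4me3 region touching the gene body ranged from 1850 bp at Spi1, the gene of PU.1, to 7050 bp at Bcl11a, with a median of 3838 bp, against 9700 bp at Pax5. By the highest Pax5 score in the body, Pax5 was at rank 5 of 19, after Irf8 (1318.32), Erg (1135.71), Ikzf3 (1000.76) and Bach2 (837), and the lowest was that of Myb (103.5). By the number of Pax5 peaks in the body it was at rank 3 with 7, after Erg with 10 and Ets1 with 9. By the highest H3K27ac score in the body it was at rank 12, with 54.8 against a median of 60.0 for the others, and by the number of H3K27ac peaks at rank 11, with 14 against 75 in Runx1 and 72 in Ebf1. Gene bodies differ in length, from 6.077 kb for Spib to 390.775 kb for Ebf1, and 180.302 kb for Pax5. Per kb of body, Erg, Ets1, Ikzf3, Irf8, Spib, Tcf3, Spi1 and Irf4 held more Pax5 peaks than Pax5, and the other regulators held fewer. Ets1, for example, held its 9 in 121.6 kb.

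The other members of the Pax family, which serve in the development of other tissues, were almost without entries at their starts. None of Pax1, Pax2, Pax3, Pax4, Pax6, Pax7, Pax8 and Pax9 had an H3K27ac or Pax5 peak within 1000 bp of a start, and only Pax6 had H3K4me3 there, a single bin of 25 bp. The shares of all protein-coding genes with an entry within 1000 bp of a start were 49.0% for H3K27ac, 52.9% for H3K4me3 and 38.0% for Pax5. In the body, Pax7 and Pax8 had an H3K27ac peak, as 11863 of the 22380 protein-coding genes did. Pax7 alone had a Pax5 peak there, as 9408 of all these genes did. Pax3 and Pax6 had only H3K4me3 in the body, for which the share of all genes is not given here. With 8 genes, the counts in the body are too small to set the family apart. Pax7 held 7 H3K27ac peaks with scores of up to 31.6 and 2 Pax5 peaks, Pax8 held 1 H3K27ac peak with a score of 4.60, Pax3 held an H3K4me3 region of 100 bp, and Pax6 held its bin.

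**Figure D4:**
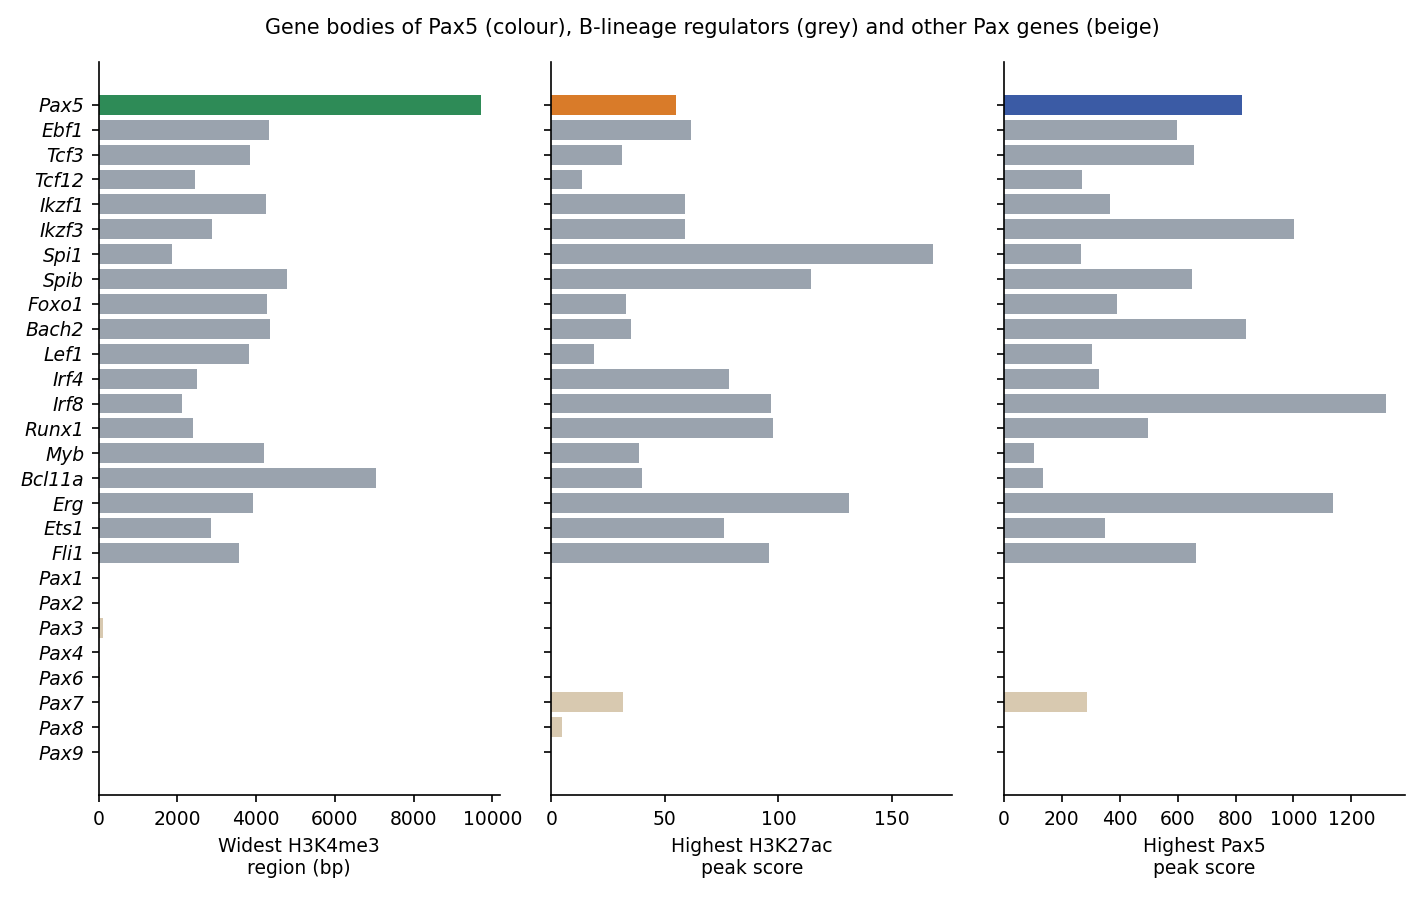
Bars give the width in bp of the widest H3K4me3 region, the highest H3K27ac score and the highest Pax5 score touching the gene body, with no bar where there is none, for Pax5 (coloured), 18 B-lineage regulators (grey) and 8 other Pax genes (beige). Pax5 has the longest bar for H3K4me3, because its region of 9700 bp is the widest of the whole list. It is at rank 12 of 19 for H3K27ac and at rank 5 for its own binding, and the other Pax genes have few or no bars.

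The genes whose pattern was most like that of Pax5 were sought by the number of entries of the 3 lists in the gene body plus 50 kb on each side. The distance was the sum over the lists of the absolute log2 ratio of the number plus 1 to that of Pax5. Among the 22380 protein-coding genes, apart from those whose window overlaps, the 5 nearest were Ankrd6 (distance 0.23, with 16 H3K27ac peaks, 3 H3K4me3 regions and 8 Pax5 peaks), Azi1 (0.32, with 17, 3 and 7), C030046E11Rik (0.32, with 17, 4 and 9), Cds2 (0.40, with 18, 3 and 7) and Iglc3 (0.40, with 18, 3 and 7). Only 3 counts enter this measure, and none of the 5 was among the nearest when the gene body alone was used. The counts were not scaled to the length of the window. The gene bodies of the 5 ran from 1.94 kb for Iglc3 to 146.807 kb for Ankrd6, against 180.302 kb for Pax5.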

How the data were processed

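H3K27ac, H3K4me3 and Pax5 lists of pre-B cells were analysed, 1 library per list. According to the submitters' notes and the study's methods, duplicate reads were removed, adapters trimmed and reads aligned to mm9 with Bowtie (0.12.9 in the notes, a later version in the methods), keeping reads with up to 3 best positions. Such reads can place signal at several similar sequences. MACS 1.4.2 is given for peak calling, in the methods for the peaks of CTCF and Rad21 only. The score of each H3K27ac and Pax5 peak was deposited by the authors without a scale and is comparable only within a list. The Pax5 list was deposited as one of confident peaks, with a lowest score of 87.87, so weaker peaks may have been left out of it. For H3K4me3 the values the authors deposited are of another kind, coordinates of 25 bp bins without a score, and how bins were chosen is not given in the sources used here.

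Overlaps of at least 1 bp with GENCODE M1 on NCBIM37 were counted in Python 3.11.15 with numpy 2.4.6 and pandas 2.3.3, and figures were drawn with matplotlib 3.10.9. Starts within 500 bp formed a group, and a promoter was 1000 bp on either side of a start. Named genes are Pax5, genes in its window, both gene lists and the 5 genes of most similar counts. Spi1 is named Sfpi1 in GENCODE M1 and was matched by its RefSeq synonym. A marker gene and a sequence that were looked up are not reported here. The RefSeq promoter table held 1 entry for Pax5. The overlap and motif functions gave the planted answers on made-up intervals and sequences. The gene and the lists of genes were chosen with earlier results of these data known. Alternatives were other flanks, joins, promoter widths, overlap rules, motif windows, gene lengths and the higher-scoring 50% of the lists.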

Additional observations from a re-analysis of the deposited data

How the results depend on the processing

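No paired analysis was possible because there is 1 library behind each of the lists. Of 55 alternative values, 15 moved and 40 did not, although small counts among these 40 could still change by 1 to 3. A count moved if it changed by more than 1.5 times. A percentile moved if it left the 95% binomial (Wilson) interval of the value reported. That interval served as a cut-off only and measures no uncertainty for the single gene Pax5. With the higher-scoring 50% of the lists, which keeps fewer peaks by construction, 9 H3K27ac and 6 Pax5 peaks were left in the window, 2 start groups had a Pax5 peak, and the percentile of Pax5 for H3K27ac peaks per 10 kb was 88.5. With the midpoint as the overlap, 3 Pax5 peaks had H3K27ac. Among genes of at least 50 kb, the percentiles by entries per 10 kb were 81.1 for H3K27ac, 56.7 for H3K4me3 and 96.4 for Pax5, and among all protein-coding genes 69.1, 51.0 and 76.1. Over whole peaks, 2 held the Ebf1 motif, 7 an E box and 4 the Runx motif, and 1 held the Runx motif in its central 200 bp. With the gene body only, 0 of the 5 most similar genes were shared. The causes were not tested, apart from the shorter lists and windows themselves. The alternatives by score were not run for H3K4me3, which has no score. Depth is unknown and limits all lists, so a stretch without a peak is a stretch where none was listed.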
